A study of Mus musculus with 36 samples.

Results

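Cdh2, Cdh3, Cdh4, Cdh6 and Cdh11 are 5 classical cadherins of mesenchyme and of the forming nephron, and their mRNA was followed across CHIR doses and knockouts in mouse nephron progenitor cells (NPCs). The members were taken by symbol, matched to the Ensembl identifiers of the tables, and all 5 were found in each of 3 tables of normalized read counts that hold 25760, 26863 and 26472 genes. On GRCm38 (GENCODE vM21 annotation), Cdh2 lies at chr18:16588877-16809246 on the minus strand and Cdh3 at chr8:106510891-106557297 on the plus strand. Cdh4 lies at chr2:179442431-179899373 on the plus strand, Cdh6 at chr15:13028701-13173675 on the minus strand and Cdh11 at chr8:102632095-102785642 on the minus strand.

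Classical cadherins are single-pass membrane proteins that bind cadherins of neighbouring cells in the presence of calcium. Their cytoplasmic tails hold β-catenin and p120 catenin, and β-catenin links the complex through α-catenin to actin, so the protein that drives canonical Wnt transcription is also a structural part of the junction. Cdh2 (N-cadherin), Cdh3 (P-cadherin) and Cdh4 (R-cadherin) are type I cadherins, whereas Cdh6 (K-cadherin) and Cdh11 (OB-cadherin) are type II. In the kidney, mesenchymal cells condense and turn into an epithelial renal vesicle as nephrons form, and Cdh4 and Cdh6 are known markers of these early nephron structures, while Cdh11 is known from mesenchyme.

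Primary NPCs came from E16.5 kidneys of Swiss Webster or C57Bl/6 embryos and were enriched by magnetic depletion of other cell types, then kept in an expansion medium with the GSK3β inhibitor CHIR, which stabilizes β-catenin. The wild-type table holds 3 libraries at each of 3 doses, called no CHIR (0 µM), low CHIR (1.25 µM) and high CHIR, which is 5 µM. The Ctnnb1 table holds 2 libraries in each of 8 groups, all in low or high CHIR: B-catenin_c_c NPCs (a conditional Ctnnb1 allele) without Cre mRNA (no Cre) or with it (Cre), and Cas9-eGFP NPCs with a guide against GFP or with guides against Ctnnb1. The Tcf/Lef table holds Cas9-eGFP NPCs with the GFP guide (3 libraries at each of the same doses) or with guides against Tcf7l1, Tcf7l2, Tcf7 and Lef1 given together (QKO, with 2 libraries at the low and 3 at the high dose). Transfected cells also received mCherry mRNA, were held in low CHIR to allow removal, longer in the Tcf/Lef experiment than in the Ctnnb1 experiment, and were sorted by mCherry. No transfection or sort is described for the wild-type cells. The sex of the embryos was not recorded, and the labels do not say whether replicates are separate cultures, so p-values measure the spread between these libraries, which may be technical.

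The 36 libraries held 13089780 to 76071568 reads on genes (median 18990328), and the lowest member value rested on 104 reads. The summed normalized count of 7 NPC marker genes (Six2, Cited1, Eya1, Pax2, Wt1, Sall1 and Osr1) ranged from 4146 to 31195 over the libraries. It was lowest in wild-type cells in high CHIR, where Osr1 was at 0 in every library. Six2, Cited1 and Eya1 averaged 68, 94 and 91 there, against 2922, 2777 and 3566 in low CHIR. Sall1 was the highest of the 7 at both doses, at 5390 in high and 4960 in low CHIR. The summed count of 8 stroma markers varied between libraries from 255.9 to 30082, and 1 GFP-guide library in high CHIR of the Tcf/Lef table had a summed blood-marker count of 2665. High CHIR replicate 3 of the wild-type cells stood apart from the other two of its group: it held Wnt4 at 11108 against 1315 and 1473, Pax8 at 94.4 against 7800.4 and 7498, Lhx1 at 103.7 against 5949 and 6706, and Cdh13 at 4735 against 913 and 773. The differences of the members in wild-type high CHIR are given with and without it. Those of most other named genes are given with it only. EdgeR and DESeq2 were run without 3 libraries: Cre high CHIR replicate 1 and GFP-guide low CHIR replicate 1 of the Ctnnb1 table, and GFP-guide high CHIR replicate 2 of the Tcf/Lef table. In both tools Cre high CHIR and GFP-guide low CHIR of the Ctnnb1 table thus had 1 library, assumed to vary like the other groups. With the Ctnnb1 guides the mean of Ctnnb1 was 1346 against 2959 in low CHIR (log2 difference -1.16, limma adjusted p = 0.252), which missed the threshold, and it was lower in high CHIR (1450.0 against 2666, -0.89, adjusted p = 0.0429). With Cre the means were 2768 against 3488 in low and 2418 against 2315 in high CHIR; the count covers the whole gene and the exons deleted by the allele are not given in the sources used here, so it does not check the Cre removal. In QKO, Tcf7 was lower in high CHIR (139 against 446, log2 difference -1.64, adjusted p = 0.0175). The differences of Tcf7l1, Tcf7l2 and Lef1 were 0.15, -0.35 and -2.12 with adjusted p of 0.778, 0.513 and 0.131. At low CHIR the differences of Tcf7l1, Tcf7l2, Tcf7 and Lef1 were -0.88, -0.15, -1.23 and 0.13, and limma called none. For Tcf7l1 and Tcf7 the QKO libraries there lay below all GFP-guide libraries. These are mRNA values and do not check the loss of protein. By immunostaining, the paper reports less β-catenin with Cre and with the guides, and less of each Tcf/Lef factor with its own guide.

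The guides that removed β-catenin and the Tcf/Lef factors are shown because every knockout comparison of the cadherins in Cas9-eGFP cells rests on them. Bases of the guide are in lower case, and the capitals after them are the 3 genomic bases next to the guide's 3′ end, the PAM, read from the annotated transcript:
Ctnnb1_sgRNA1: atgagcagcgtcaaactgcgTGG
Ctnnb1_sgRNA3: agccaagcgctggacattagTGG
Ctnnb1_sgRNA5: agctacttgctcttgcgtgaAGG
Ctnnb1_sgRNA6: gagattatgcagtgtcgtgaTGG
Tcf7l1: cttaaaaaaagcgccatcctGGG
Tcf7: agctgggggacgccatgtggAGG
The first 4 match coding sequence of Ctnnb1 on the minus strand (GRCm38, transcript Ctnnb1-201 of 15 exons): chr9:120950987-120951006 and chr9:120951011-120951030 in exon 4, chr9:120950729-120950748 in exon 3, and chr9:120951618-120951637 in exon 6. The Tcf7l1 guide matches coding exon 3 of Tcf7l1 at chr6:72788307-72788326 and the Tcf7 guide coding exon 3 of Tcf7 at chr11:52261584-52261603, both on the plus strand. The Tcf7l2 guide (ttagcggccaagaggcaaga) and the Lef1 guide (ctcccaggaaagcatccaga) had no full match in an annotated coding transcript, and no position is given for them.

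The makeup of the cadherin mRNAs changed with CHIR. Per kilobase of exon, which allows genes to be compared, Cdh2 and Cdh11 led in low CHIR in all 3 tables, and Cdh3 or Cdh4 led in high CHIR in wild-type and control cells. In wild-type cells the summed level of the 5 members per kilobase was 1560 ± 266 (SD, n = 3) normalized counts in no, 1919 ± 104 in low and 2836 ± 230 in high CHIR, and the members made up 84.8% to 92.5% of the summed level of all listed cadherins in the 9 libraries. Cdh11 gave 40.7% ± 1.69 of the members' level in low and 4.57% ± 2.25 in high CHIR (n = 3), Cdh2 gave 35.7% ± 3.63 and 16.8% ± 3.83, and Cdh3 gave 8.12% ± 0.914 and 54.5% ± 13.9. The order in low CHIR was Cdh11, Cdh2, Cdh4, Cdh3 and Cdh6, in which Cdh11 and Cdh2 (781 ± 22.2 and 687 ± 98.6 per kilobase) and Cdh4 and Cdh3 (209 ± 47.4 and 155 ± 12.6) each differed by about the SD of the more variable of the pair. In high CHIR the order was Cdh3 (1538 ± 382), Cdh4 (643 ± 264), Cdh2 (476 ± 122), Cdh11 (132 ± 69.7) and Cdh6 (47.6 ± 17.7), in which Cdh4 and Cdh2 lay within 1 SD. In high CHIR replicate 3 Cdh3 gave 38.4% and Cdh4 32.3% of the members' level, against 62.3% and 62.8% for Cdh3 and 17.4% and 17.8% for Cdh4 in the other two libraries.

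With Cre the makeup in high CHIR stayed close to that of low CHIR. Cdh4 gave 42.0% ± 3.07 of the members' level in the no-Cre libraries in high CHIR (SD, n = 2) and 9.97% ± 1.06 in the Cre libraries, against 15.5% ± 2.56 and 7.47% ± 2.50 in low CHIR. The type I share (Cdh2, Cdh3 and Cdh4 together) was 74.8% ± 2.41 in no-Cre cells in high CHIR, and lay between 53.7% and 59.3% in the group means of all low CHIR groups of that table and of both Ctnnb1 knockout groups in high CHIR. In the Tcf/Lef table, the mean shares of QKO cells in high CHIR lay between for every member but Cdh6. Cdh3 gave 13.8% ± 6.0 of the members' level (n = 3), against 27.7% ± 9.59 in GFP-guide cells in high CHIR and 4.36% ± 0.367 in QKO cells in low CHIR (n = 2). Cdh6 gave 13.0% ± 0.978, above the 9.39% ± 2.22 and 4.08% ± 1.21 of the same groups. These shares are descriptions of the libraries and were not tested. In bulk libraries such as these, fewer cells of a type and less mRNA per cell cannot be told apart.

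**Figure D1:**
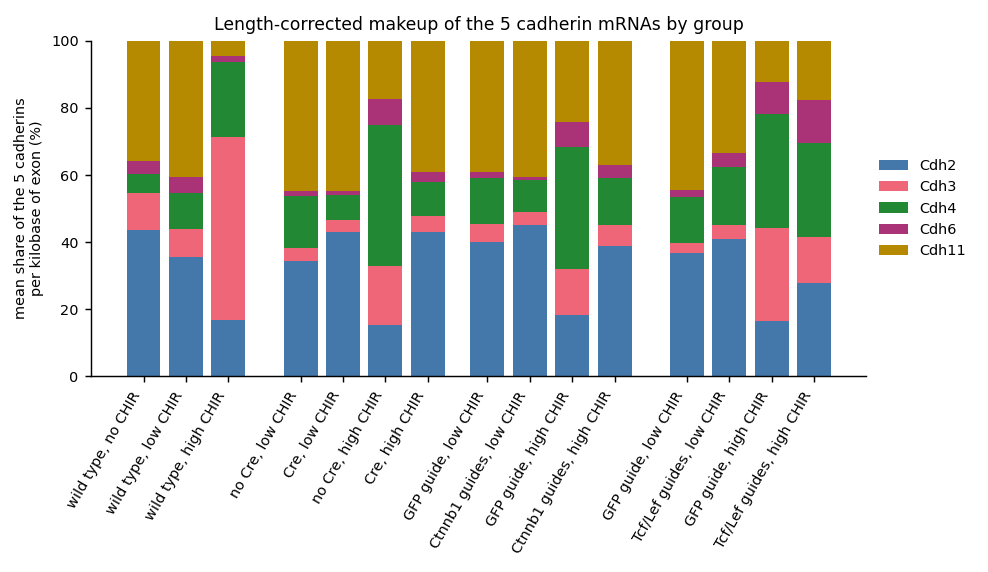
Mean share of each of the 5 cadherins in their summed level per kilobase of exon (%), by group; each bar is the mean of the 2 or 3 libraries of a group. Cdh11 and Cdh2 fill most of the bars in low CHIR, and Cdh3 and Cdh4 take most of the bar in high CHIR in wild-type cells, no-Cre cells and GFP-guide cells of the Tcf/Lef table.

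Cdh3 rose the most of the 5 in wild-type cells. Its normalized counts were 869, 653 and 724 in no CHIR, 620.2, 728 and 695 in low CHIR and 8218, 7087 and 4923 in high CHIR. Every library in high CHIR lay above all 6 others, and no and low CHIR overlapped. The log2 difference (a fold change of log2(normalized count + 1), from limma across all genes of the table) was 3.28 ± 0.193 (SE) for high against low CHIR with an adjusted p of 8.95e-06, and 0.13 ± 0.193 for no against low CHIR (95% interval -0.30 to 0.56, adjusted p = 0.752). Without high CHIR replicate 3 the rise was 3.49 (adjusted p = 1.49e-06).

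In the Ctnnb1 table Cdh3 rose from 232 and 298 in low CHIR to 1376 and 1931 in high CHIR without Cre. With Cre it was at 220.4 and 331 in low and 210.0 and 435 in high CHIR, so these 4 libraries overlapped. With the GFP guide it went from 366 and 290.0 to 1012 and 887, and with the Ctnnb1 guides from 267 and 204 to 318 and 391. At high CHIR both ways of removing β-catenin lowered Cdh3, by 2.43 on the log2 scale with Cre (SE 0.325, adjusted p = 0.000339) and by 1.42 with the guides (SE 0.325, adjusted p = 0.0236). At low CHIR the differences were 0.04 with Cre and -0.48 with the guides (95% intervals -0.66 to 0.74 and -1.18 to 0.22). The rise with CHIR under the GFP guide was 1.54 (adjusted p = 0.0103) and was not called without low CHIR replicate 2 or either library in high CHIR (1.37 to 1.63, adjusted p 0.0569 to 0.0889). The high-CHIR call with the guides was lost when any 1 of its 4 libraries was left out (-1.57 to -1.28, adjusted p 0.108 to 0.141).

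In the Tcf/Lef table Cdh3 was at 257, 275 and 197 in low CHIR and at 2524, 3927 and 2224 in high CHIR with the GFP guide. QKO cells held 336 and 318 in low CHIR and 466, 1389.8 and 994 in high CHIR. The QKO libraries in high CHIR thus lay above those in low CHIR and below every GFP-guide library in high CHIR. The QKO difference at high CHIR was -1.70 ± 0.338 (SE, adjusted p = 0.0219). In limma it was no longer called without GFP-guide replicate 2 (-1.46, adjusted p = 0.115) or without QKO replicate 3 (-1.80, adjusted p = 0.0520). EdgeR, which was run without that same GFP-guide library, gave -1.32 with an adjusted p of 0.129. Within QKO the rise with CHIR was 1.40 ± 0.378 (adjusted p = 0.0832), and 1.17 with an adjusted p of 0.0372 when replicates of the same number were treated as pairs. It was 1.84 (adjusted p = 0.00623) without QKO high CHIR replicate 1.

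Cdh4 was the member that was also called between no and low CHIR. Its normalized counts in wild-type cells were 718, 644 and 631 in no, 1887, 1209.6 and 1446 in low, and 3811, 3322 and 6861 in high CHIR. The 3 doses did not overlap. Against low CHIR the log2 difference was -1.17 ± 0.257 (SE) in no CHIR (adjusted p = 0.0337) and 1.57 ± 0.257 in high CHIR (adjusted p = 0.00349), or 1.26 (adjusted p = 0.00156) without high CHIR replicate 3. The call in no CHIR was lost when any of 5 of the 6 libraries was left out (all but no CHIR replicate 1; -1.32 to -0.99, adjusted p 0.0725 to 0.143).

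Without Cre, Cdh4 went from 1841 and 1748 in low CHIR to 6215 and 6915 in high CHIR, whereas with Cre it was at 1177 and 702 in low and 989 and 1222 in high CHIR. With the GFP guide it went from 1355 and 1412 to 3762.5 and 4612, and with the Ctnnb1 guides from 860.3 and 1093 to 1164 and 1459. In both knockouts every library, in low or high CHIR, lay below every control library in high CHIR. At high CHIR the log2 difference was -2.57 ± 0.229 (SE) with Cre (adjusted p = 1.14e-05) and -1.68 ± 0.229 with the guides (adjusted p = 0.000786). At low CHIR it was -0.98 with Cre (95% interval -1.47 to -0.49, adjusted p = 0.113) and -0.51 with the guides (-1.01 to -0.02, adjusted p = 1). Limma without pairs called neither. The control libraries lay above the knockout libraries in each, and how often groups this small part over all genes was not counted. With replicates of the same number treated as pairs, limma called the Cre difference (adjusted p = 0.0179). DESeq2 called the Cre difference (-0.92, adjusted p = 0.0316). Without Cre low CHIR replicate 1 the Cre difference at low CHIR was -1.35, with an adjusted p of 0.0386.

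In the Tcf/Lef table Cdh4 was at 2374, 1847 and 1439 in low and 8002, 4485 and 5448 in high CHIR with the GFP guide. QKO cells held 2217 and 2055 in low CHIR and 2826, 3035 and 3435 in high CHIR. The QKO difference was 0.21 ± 0.240 (SE) at low CHIR (adjusted p = 0.909) and -0.91 ± 0.215 at high CHIR (adjusted p = 0.0482). The latter was not called when GFP-guide replicate 1 or 3 or any of the 3 QKO libraries was left out (-0.99 to -0.68, adjusted p 0.0669 to 0.188). Within QKO, Cdh4 differed by 0.53 ± 0.240 between high and low CHIR (adjusted p = 0.337), with all 3 libraries in high CHIR above both in low CHIR.

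**Figure D2:**
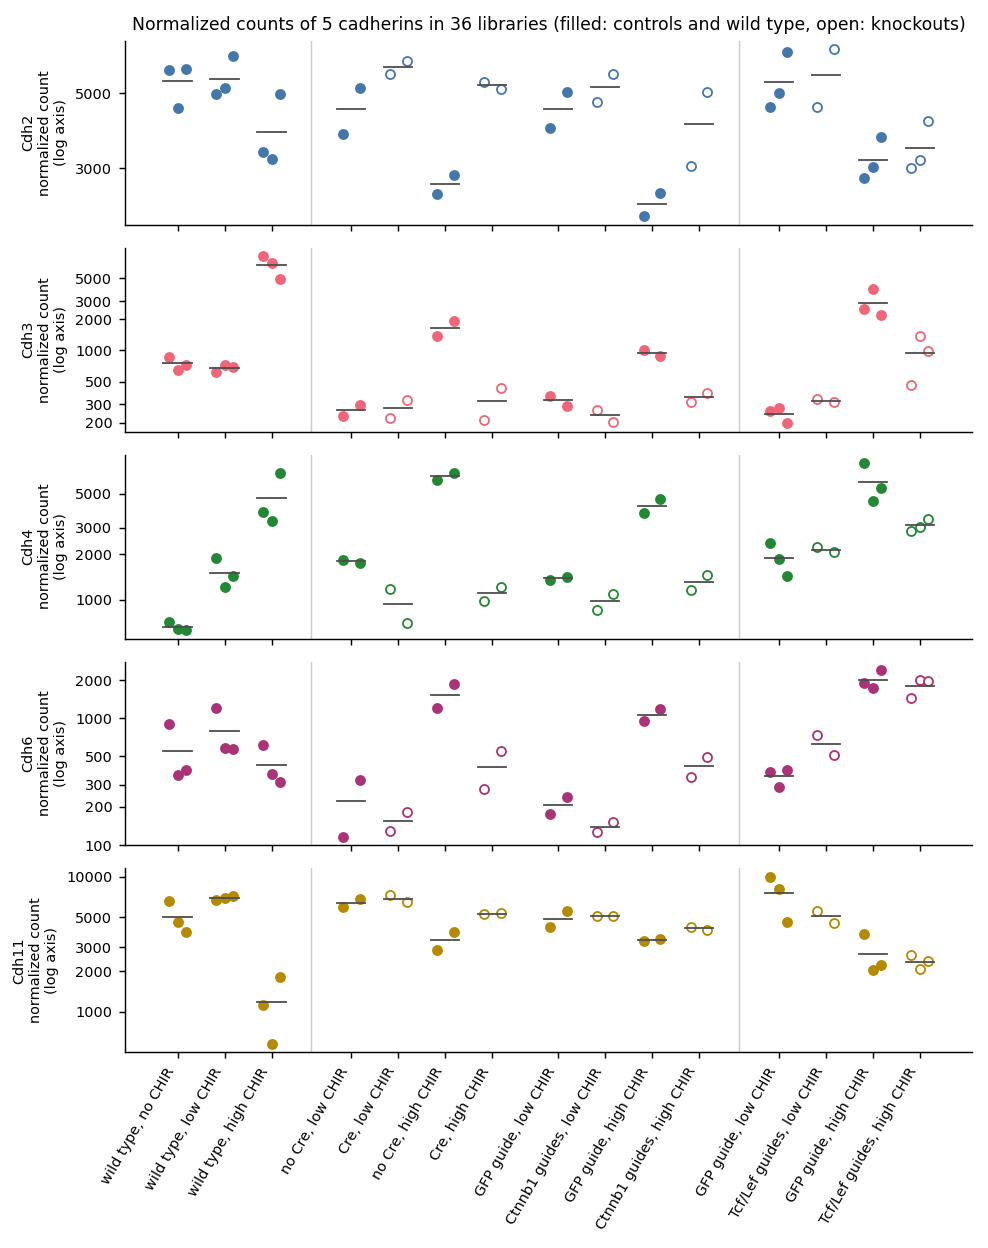
Normalized counts (log axis) of each cadherin in all 36 libraries by group; each point is a library, lines are group means, open points are knockouts, and grey lines part the 3 tables, which were normalized separately. Cdh3 and Cdh4 are high in high CHIR in wild-type and control cells and low in both Ctnnb1 knockouts, while the mean of Cdh6 is higher in high than in low CHIR in the transfected controls and lower in wild-type cells.

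Cdh6 rose with CHIR in the transfected controls, and its difference in wild-type cells was not called. Wild-type counts were 909, 359 and 389 in no CHIR, 1214, 584 and 571 in low CHIR and 612, 364 and 312 in high CHIR, so the 3 doses overlapped. The log2 difference of high against low CHIR was -0.85 ± 0.414 (SE, 95% interval -1.76 to 0.07, adjusted p = 0.239), and -0.65 (adjusted p = 0.445) without high CHIR replicate 3. Without Cre, Cdh6 went from 115 and 326 in low CHIR to 1215 and 1862 in high CHIR (2.95 ± 0.441, adjusted p = 0.000789). With the GFP guide it went from 177 and 240.3 to 949 and 1179 in the Ctnnb1 table (2.35 ± 0.441, adjusted p = 0.00469) and from 375, 288 and 388 to 1893, 1738 and 2408 in the Tcf/Lef table (2.52 ± 0.199, adjusted p = 9.19e-06). The GFP-guide call in the Ctnnb1 table was lost without low CHIR replicate 1 (2.13) or high CHIR replicate 2 (2.20), with adjusted p of 0.0527 and 0.0569. Wild-type and transfected cells differ in genotype, in handling and in table, which cannot be told apart, and the difference between the tables was not tested.

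With Cre, Cdh6 was at 128 and 183 in low and 275 and 555 in high CHIR, and with the Ctnnb1 guides at 127 and 150.6 in low and 345 and 497 in high CHIR. At high CHIR the difference from control was -1.94 ± 0.441 (SE, adjusted p = 0.0135) with Cre and -1.35 ± 0.441 (adjusted p = 0.0999) with the guides. The Cre call was lost without no-Cre replicate 2 (-1.64) or Cre replicate 1 (-1.44), with adjusted p of 0.114 and 0.127. EdgeR, with Cre replicate 2 as its 1 library of that group, did not call it (-1.48, adjusted p = 0.144), and DESeq2 called the difference of the guides (-1.34, adjusted p = 0.0141). In QKO cells Cdh6 was at 739 and 515 in low CHIR, above all 3 GFP-guide libraries, and at 1433, 1998 and 1977 in high CHIR, among the GFP-guide libraries. The QKO differences were 0.83 ± 0.223 at low CHIR (adjusted p = 0.904) and -0.16 ± 0.199 at high CHIR (95% interval -0.60 to 0.27, adjusted p = 0.764). Within QKO it rose by 1.53 ± 0.223 with CHIR (adjusted p = 0.00396), a call lost without QKO low CHIR replicate 3 (1.27, adjusted p = 0.0559).

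Of the members, the promoter table used here held Cdh6 (RefSeq, GRCm38.p6). The 250 bases before its start, chr15:13173676-13173925 on the minus strand, are shown, and no other member had a promoter there. CTTTG on either strand, the core of the letters bound by Tcf/Lef factors, is in capitals:
Cdh6: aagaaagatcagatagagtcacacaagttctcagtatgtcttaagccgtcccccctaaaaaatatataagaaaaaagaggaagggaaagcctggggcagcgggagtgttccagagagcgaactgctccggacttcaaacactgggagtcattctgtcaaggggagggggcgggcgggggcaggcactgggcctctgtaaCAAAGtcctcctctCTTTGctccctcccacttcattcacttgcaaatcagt
The window holds 2 matches, which begin 51 and 37 bases before the start, and 48.6% of 32851 promoter windows of the same length hold at least 1 and 15.7% at least 2. The longer CTTTGA, searched on both strands and overlapping the shorter letters, is not in this window and is in 13.8% of all windows. Its GC content of 51.2% is near the median of 52.4%.

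Cdh11 fell with CHIR. In wild-type cells it was at 6556, 4605 and 3868 in no CHIR, 6779, 6904 and 7167 in low CHIR and 1130.5, 578 and 1816 in high CHIR. All libraries in high CHIR lay below the 6 others, and all in no CHIR lay below all in low CHIR. The log2 difference of high against low CHIR was -2.71 ± 0.345 (SE, adjusted p = 0.000847), or -3.10 (adjusted p = 0.000107) without high CHIR replicate 3, and that of no against low CHIR -0.51 ± 0.345 (adjusted p = 0.422). The fall was smaller without Cre, from 6002 and 6811 to 2857 and 3892 (-0.94 ± 0.177, adjusted p = 0.00421), and was not called with the GFP guide of the Ctnnb1 table, from 4229 and 5539 to 3338 and 3454 (-0.51 ± 0.177, adjusted p = 0.107). In the Tcf/Lef table it went from 9975, 8109 and 4639.8 to 3761, 2046 and 2206 with the GFP guide (-1.49 ± 0.276, adjusted p = 0.00329). The no-Cre call was lost without high CHIR replicate 1 (-0.72, adjusted p = 0.0600).

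With Cre, Cdh11 was at 7300.3 and 6492 in low CHIR and 5285 and 5349 in high CHIR. Both Cre libraries in high CHIR lay above both no-Cre libraries, by 0.67 ± 0.177 on the log2 scale (adjusted p = 0.0298), a call lost without no-Cre replicate 1 (0.45), Cre replicate 1 (0.68) or Cre replicate 2 (0.66), with adjusted p from 0.102 to 0.257. With the Ctnnb1 guides it was at 5115 and 5156 in low and 4275 and 4024 in high CHIR, a difference from control at high CHIR of 0.29 ± 0.177 (adjusted p = 0.405). QKO cells held 5596 and 4575 in low CHIR and 2619.7, 2089.8 and 2358 in high CHIR. At high CHIR they lay among the GFP-guide libraries (-0.13 ± 0.276, 95% interval -0.73 to 0.47). Within QKO the fall was -1.11 ± 0.309 (adjusted p = 0.0937), and -1.05 with an adjusted p of 0.0166 with paired replicates.

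Stroma markers moved along with Cdh11 in part. Their 8-gene sum, led by Col1a1, was 10094 to 16542 in wild-type cells in low CHIR and 3724 to 12170.0 in high CHIR. It was 4213 to 10341 without Cre and 10375 to 16592 with Cre in low CHIR, and 3758 to 5592 and 7020.3 to 14235 in high CHIR. In GFP-guide replicate 3 of the Tcf/Lef table, where the sum was 255.9 in low and 296 in high CHIR, Cdh11 was at 4639.8 and 2206. The part of the stroma markers in the differences of Cdh11 was not tested.

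**Figure D3:**
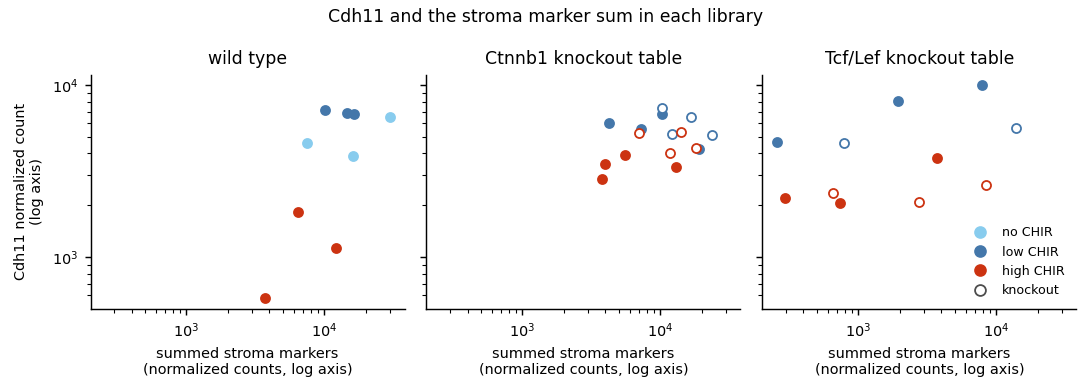
Cdh11 normalized count against the summed normalized count of 8 stroma markers (both log axes) in each library, by table; colours give the CHIR dose and open points are knockouts. In the Tcf/Lef table every library in high CHIR holds less Cdh11 than every library in low CHIR, with stroma sums of 296 to 8499.7 in high and 255.9 to 14006 in low CHIR.

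The mean of Cdh2 was lower in high than in low CHIR in every table, by less than 1 on the log2 scale, and the difference passed the test in the GFP-guide controls. Its counts in wild-type cells were 5857, 4534 and 5906 in no, 4976, 5192 and 6448 in low and 3349, 3195 and 4969.7 in high CHIR. The libraries in high CHIR lay below those in low CHIR, the highest by a small margin, and the log2 difference was -0.55 ± 0.191 (SE, adjusted p = 0.100). It was -0.75 with an adjusted p of 0.0120 without high CHIR replicate 3. No against low CHIR gave -0.03 (95% interval -0.45 to 0.39). With the GFP guide Cdh2 fell with CHIR from 3949 and 5058 to 2155 and 2535 in the Ctnnb1 table (-0.94 ± 0.234, adjusted p = 0.0271) and from 4568, 5012 and 6646 to 2795, 3019 and 3720.1 in the Tcf/Lef table (-0.76 ± 0.196, adjusted p = 0.0215). The first was lost when any 1 of its 4 libraries was left out (-1.11 to -0.76, adjusted p 0.0510 to 0.182), the second without low CHIR replicate 2 or 3 or high CHIR replicate 1 or 2 (-0.80 to -0.60, adjusted p 0.0508 to 0.0751).

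Without Cre, Cdh2 went from 3786 and 5206 to 2516 and 2854 (-0.73 ± 0.234, adjusted p = 0.0792), whereas with Cre it was at 5715 and 6236 in low and 5416 and 5169 in high CHIR. The Cre libraries in high CHIR held about the level of low CHIR and lay above both no-Cre libraries, by 0.98 ± 0.234 on the log2 scale (adjusted p = 0.0178). This call was lost when any 1 of the 4 libraries was left out (0.89 to 1.07, adjusted p 0.0533 to 0.121). With the Ctnnb1 guides Cdh2 was at 4727 and 5702 in low and 3047 and 5063 in high CHIR, a difference from control at high CHIR of 0.75 ± 0.234 (adjusted p = 0.0875), and of 1.11 (adjusted p = 0.0315) without guide replicate 1. QKO libraries held 4561 and 6778 in low and 2995, 3164 and 4147 in high CHIR. They overlapped the GFP-guide libraries at both doses (0.06 ± 0.219 at low and 0.11 ± 0.196 at high CHIR), and their fall with CHIR was -0.71 ± 0.219 (adjusted p = 0.129), or -0.67 with an adjusted p of 0.00240 with paired replicates.

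Counted by comparison, a member was called where the adjusted p was under 0.05 and the log2 difference at least 0.5 in size. In wild-type cells 3 of 5 members were called for high against low CHIR (Cdh3 and Cdh4 higher, Cdh11 lower), where 10.4% of 17411 tested genes were called, and 4 of 5, with Cdh2 lower as well, without high CHIR replicate 3 (2207 genes in all against 1808 with it). It was 1 of 5, Cdh4, for no against low CHIR, where 4.97% were. High CHIR called 4 of 5 without Cre (8.05% of 16780 genes), 4 of 5 with the GFP guide in the Ctnnb1 table (7.51%) and 5 of 5 with the GFP guide in the Tcf/Lef table (14.9% of 15878 genes). In each control Cdh3, Cdh4 and Cdh6 were higher. With the GFP guide in the Ctnnb1 table, leaving out any 1 library left 1 or 2 called, and edgeR, with 1 low CHIR library, called 2. With Cre the limma count was 0 of 5 (0.292% of genes), with 1 member at an unadjusted p under 0.05 and that size, which 532 of 16780 genes reached. EdgeR called 0 and DESeq2 1, each with 1 Cre library in high CHIR. With the Ctnnb1 guides it was also 0 of 5 (0.763% of genes), again with 1 member at an unadjusted p under 0.05 and that size (1274 genes in all). EdgeR called 0 members there and DESeq2 1. In each case that member was Cdh6, at 1.34 and 1.58 (adjusted p = 0.770 and 0.187). With paired replicates limma called Cdh6 in both knockouts. QKO cells had 1 of 5 called between high and low CHIR, Cdh6 (2.54% of genes), and 4 of 5 with paired replicates.

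**Figure D4:**
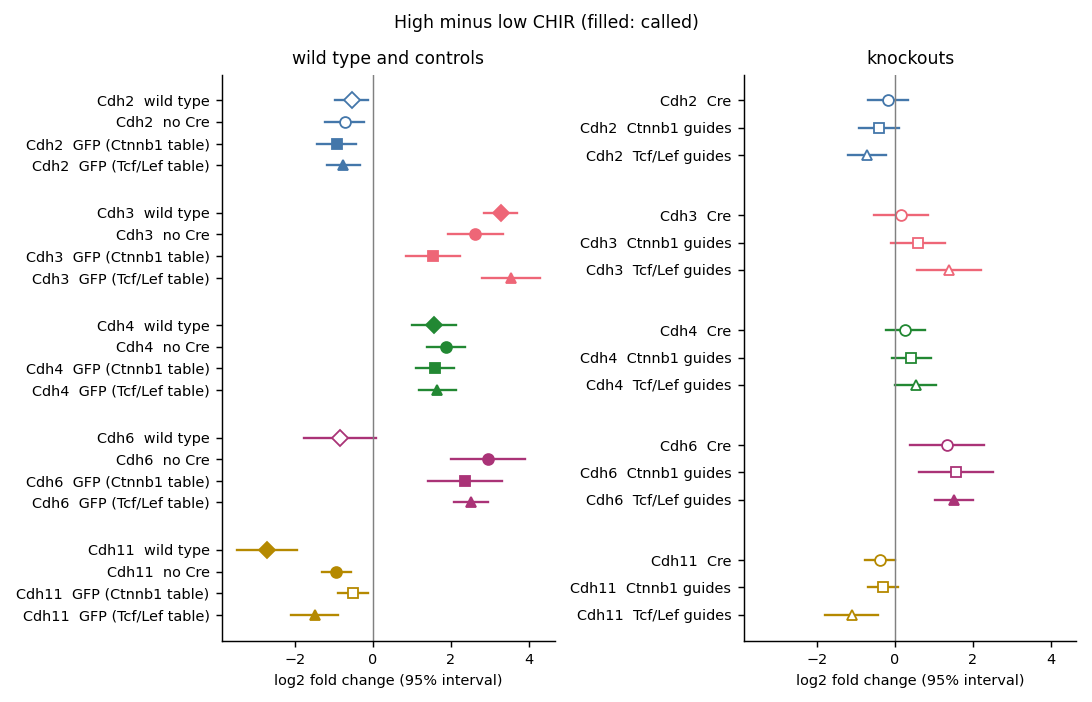
Log2 difference of high minus low CHIR for each cadherin with its 95% interval, in wild-type and control cells (left) and in knockouts (right); filled symbols are called. Cdh3 and Cdh4 lie right of 0 in all 4 comparisons on the left, and Cdh6 is the filled symbol on the right.

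Removal of β-catenin at high CHIR called 5 of 5 members with Cre (8.65% of genes) and 2 of 5, Cdh3 and Cdh4, with the guides (5.09%). With paired replicates limma called every member but Cdh11 with the guides. With Cre, edgeR, which had 1 Cre library, called 2, Cdh3 and Cdh4, and limma called 2 or 3 when any 1 library was left out; with the guides DESeq2 called 4. QKO at high CHIR called the same pair, Cdh3 and Cdh4 (2.54% of genes), and the other members were not called. With any 1 library left out, at most 1 of the pair was called. At low CHIR limma called 0 of 5 with Cre (0.328% of genes), with the guides (0.0536%) and in QKO (0.0063%). In each, 1 member was at an unadjusted p under 0.05 with that size. Over all genes, 1411 of 16780 reached this with Cre, 490 of 16780 with the guides and 570 of 15878 in QKO. With paired replicates limma called Cdh4 with Cre at low CHIR. EdgeR called 0 members with Cre and in QKO. DESeq2 called 1 with Cre, Cdh4, and 0 in QKO.

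The change of the CHIR response itself was tested as an interaction. With Cre the rise with CHIR was smaller by 2.47 ± 0.459 (SE) on the log2 scale for Cdh3 (adjusted p = 0.0192) and by 1.59 ± 0.324 for Cdh4 (adjusted p = 0.0308), and these 2 of 5 members were called against 0.995% of genes. Limma on the 4 groups of the Cre experiment alone called neither (adjusted p = 0.137 and 0.165), nor did edgeR (0.0769 and 0.152), which had 1 Cre library in high CHIR. The Cdh3 call was lost without no-Cre low CHIR replicate 1, Cre low CHIR replicate 2, no-Cre high CHIR replicate 2 or Cre high CHIR replicate 1 (-2.29 to -1.94, adjusted p 0.0593 to 0.0920). The Cdh4 call was lost without any of the 8 libraries other than Cre low CHIR replicate 2 and Cre high CHIR replicate 2 (-1.67 to -1.22, adjusted p 0.0722 to 0.130). With the guides 0 of 5 were called by limma (0.518% of genes), with 1 at an unadjusted p under 0.05, Cdh4 (-1.16, adjusted p = 0.248). In all, 1139 genes reached that p and the size of a call. For QKO limma also called 0 of 5 (0.126% of genes), with 3 at an unadjusted p under 0.05 (Cdh3, Cdh4 and Cdh6 at -2.14, -1.12 and -0.99). There 786 of 15878 genes reached that p and size, and edgeR called 0 members and DESeq2 1. With paired replicates the QKO value of Cdh3 was -2.36 with an adjusted p of 0.0207.

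**Figure D5:**
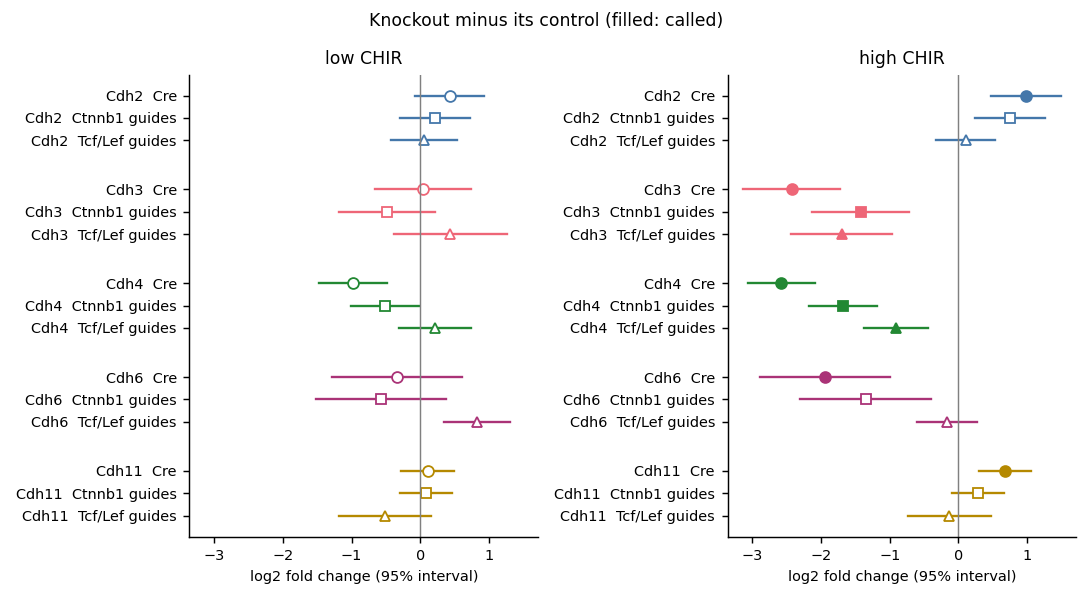
Log2 difference of each knockout from its own control with its 95% interval, in low (left) and high CHIR (right); filled symbols are called. At low CHIR no symbol is filled, and at high CHIR Cdh3 and Cdh4 are filled in all 3 knockouts.

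The Cre differences were set against those of the guides in the same fit, a contrast added after the values were seen. At high CHIR the Cre difference minus the guide difference was -1.003 for Cdh3 (95% interval -1.99 to -0.01) and -0.90 for Cdh4 (-1.60 to -0.20). Over 16780 genes limma called 0 members (0% of genes), with these 2 at an unadjusted p under 0.05, and 546 genes in all reached that p and the size of a call. For Cdh2, Cdh6 and Cdh11 the contrast was 0.23 (-0.48 to 0.95), -0.59 (-1.94 to 0.75) and 0.38 (-0.15 to 0.92). The intervals are wide, reaching -1.99 for Cdh3 and -1.94 for Cdh6, so the data do not show that the removals act alike. QKO was normalized in another table and was not tested against them.

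Of 18 other cadherins, 5 passed the low-count filter in the wild-type table, 6 in the Ctnnb1 table and 8 in the Tcf/Lef table. Cdh13 (T-cadherin, which is anchored by lipid and has no cytoplasmic tail) moved like Cdh3 and Cdh4: from 207 ± 5.82 (SD, n = 3) in low to 2141 ± 2248 in high CHIR in wild-type cells (log2 difference 2.85, adjusted p = 0.00995), where replicate 3 held 4735, and the difference was 2.02 (adjusted p = 0.00103) without it. It was lower with Cre (104 against 606, -2.53, adjusted p = 0.000522) and with the Ctnnb1 guides (218 against 678, -1.60, adjusted p = 0.0213) at high CHIR. Cdh26 was the other call, with both removals at high CHIR, at 17.4 with the guides and listed at 0 in both GFP-guide libraries. Cdh1 (E-cadherin), named here after its values were seen, was at means of 112 in no, 183 in low and 489 in high CHIR and was not called (adjusted p = 0.408 for high against low, and 0.0574 without high CHIR replicate 3). In QKO at high CHIR limma called 0 of the 8, with 1 at an unadjusted p under 0.05 and 0 by edgeR and DESeq2. Over all genes, 1770 of 15878 reached that p with the size of a call in this comparison.

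Among regulators of cadherin switching, 5 of 10 tested genes were called in wild-type cells for high against low CHIR, where 10.4% of all genes were. Snai2 (-3.54), Zeb1 (-2.32) and Snai1 (-1.50), repressors of epithelial cadherins, were lower, and Ovol1 (2.49), an epithelial transcription factor, was higher. Zeb1 was called in each removal at high CHIR in the opposite direction: 1169 against 273 with Cre, 1018 against 393 with the guides and 684 against 239 in QKO (log2 differences of 2.08, 1.40 and 1.57 with adjusted p of 2.86e-05, 0.00141 and 0.00384). Ovol1 was lower with Cre (27 against 311, -3.46). At high CHIR 3 of 7 tested regulators were called with Cre and 1 of 7 each with the guides and in QKO. Over all genes, 8.65%, 5.09% and 2.54% were called in these comparisons.

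Of 14 tested catenins and junction partners, 4 were called in wild-type cells for high against low CHIR, where 10.4% of all genes were. Ctnnd2 (δ-catenin, 5.04, or 4.22 without high CHIR replicate 3) and Plekha7 (2.17) were higher, and Pkp4 (-0.95) and Nectin3 (-0.91) were lower. At high CHIR Lima1, an actin-binding protein that joins the cadherin–catenin complex, was higher with Cre (2205 against 558, log2 difference 1.98) and with the guides (1656 against 641, 1.37), and Vcl (vinculin) was higher with Cre (1.84). These were the 2 partners called with Cre, and Lima1 and the targeted Ctnnb1 were the 2 called with the guides. Over all genes, 8.65% were called with Cre and 5.09% with the guides. In QKO limma called 0 of 14, with 2 at an unadjusted p under 0.05, 0 by edgeR and 1 by DESeq2. Of 8 genes for maturation and shedding of cadherins, the proprotein convertases Furin (0.96) and Pcsk6 (1.97) were among those called in wild-type cells, both higher in high CHIR. Adam10, the protease that sheds cadherin ectodomains, was lower with the guides at high CHIR (3466 against 5652, -0.71, adjusted p = 0.0334), and Psen2 was higher in QKO (1.10). With Cre at high CHIR limma called 0 of 8, with 1 at an unadjusted p under 0.05. In all, 3153 of 16780 genes reached that p with the size of a call there.

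The self-renewal and differentiation genes are those by which the study reads the NPC state, so their counts are not independent evidence of a direction. In wild-type cells all 7 self-renewal genes were lower in high than in low CHIR, such as Six2 (68 against 2922, -5.40). Of 6 differentiation genes 4 were higher, such as Wnt4 (4632 against 134, 4.50, with 1315 to 11108 over the libraries in high CHIR). Over all genes, 5.05% were called lower and 5.33% higher there. Without high CHIR replicate 3 Wnt4 was still called (adjusted p = 0.000996) and 6 of 6 were higher, with Pax8 and Lhx1 now called at 1.87 and 3.62 against -0.24 and 1.65 with all libraries. Among the lists of cadherins, partners, regulators, maturation and self-renewal genes, only Cdh2 changed its call without it. At high CHIR 6 of 7 self-renewal genes were higher with Cre, 5 of 7 with the guides and 6 of 7 in QKO. Over all genes, 5.9%, 3.44% and 2.05% were called higher in these comparisons, and 2.75%, 1.64% and 0.491% lower. The differentiation genes were lower in 5 of 5 tested with Cre and 4 of 5 with the guides, while in QKO limma called 0 of 6, with 4 at an unadjusted p under 0.05 and 1 each by edgeR and DESeq2.

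Across the 36 libraries, centred within each table, Cdh3 and Cdh4 followed each other (Pearson r = 0.84), and Cdh3 ran opposite to Cdh11 (-0.81) and Cdh2 (-0.74). Cdh6 was at 0.60 with Cdh3, 0.60 with Cdh4 and -0.63 with Cdh2, and was less tied to Cdh11 (-0.34). Of the genes compared, 0.956% followed Cdh3 at least as closely as Cdh4 did, and 7.61% at least as closely as Cdh6 did. The libraries share doses and tables, and these values are descriptions with no test. Among 11711 other genes with a mean of at least 50 in each table, those closest to Cdh3 were Gpr155, Aldh1a3 and Lrp4 (r = 0.94 each), and those closest to Cdh4 were Kif5c, Znrf3 and Adgrg2 (0.94, 0.92 and 0.92). Closest to Cdh6 were Dab1, Gja1 and Plekhg6 (0.88, 0.87 and 0.87), to Cdh11 Clmp, Lix1l and Col9a1 (0.94, 0.93 and 0.91), and to Cdh2 Robo2, Cask and Arhgap26 (0.90, 0.88 and 0.87).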

How the data were processed

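The authors aligned paired reads of SMARTer cDNA with STAR, counted them per gene with featureCounts and normalized each table by DESeq2 size factors (tools and the builds GRCm38 and GRCh38 per the labels' processing notes); strand use in counting is not given in the sources used here. The deposited values are thus normalized signal per gene. Whole reads were recovered from them in all 36 libraries (100% of values up to 1000 reads within 0.05 of a whole number); 3 libraries whose step is near 1 (named in the report) were left out of the count tests, which used 33. The 8 deposited comparison tables hold the authors' fold changes and p-values and were not used.

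Values were fitted per table as log2(normalized count + 1) with limma 3.58.1 (trend), 1 mean per group, for genes with a mean of at least 10, with Benjamini-Hochberg adjustment over all genes of the table. Each comparison was recomputed with a pseudocount of 0.5, no filter, the compared groups alone, TMM scaling, a replicate block, edgeR 4.0.16 and DESeq2 1.42.0 on recovered reads, and without each library; tests were checked on simulated data. Replicates of 1 group differed beyond sampling noise (chi-square over degrees of freedom at least 13.0). Replicate numbers may mark pairs in the Tcf/Lef table, where same-numbered deviations correlated by 0.249 to 0.637, but the labels do not say so. The main fit had no replicate block in any table, so its p-values leave any such pairing out. Named genes were the members, up to 4 called genes of each list by size of change, list genes called in both wild-type and QKO cells, the targeted genes and the 3 genes most like each member. The contrast of Cre with the guides and the list counts without wild-type high CHIR replicate 3 were added after the values were seen. The members and lists were chosen with earlier results of these data known. Symbols matched 25701, 26800 and 26407 of the tables' identifiers. Gene length is the union of annotated exons. The result of 1 listed gene is not reported here.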

Additional observations from a re-analysis of the deposited data

Results flagged for a closer look

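With groups of 2 or 3 libraries, no group was large enough for a test of single outlying libraries. Of the 3 interaction tests, the one for Cre found 2 members whose response to CHIR differed between knockout and control. The CHIR response with Cre minus that without Cre was -2.47 on the log2 scale for Cdh3 (SE 0.459, limma adjusted p = 0.0192) and -1.59 for Cdh4 (SE 0.324, adjusted p = 0.0308), a smaller rise with Cre, with 2 libraries in each of the 4 groups. Over leaving out each library the values ranged from -2.99 to -1.94 for Cdh3 and from -1.97 to -1.22 for Cdh4.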

How the results depend on the processing

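Apart from leaving out each library in turn, 590 member fold changes were recomputed under another setting. Of these, 547 kept direction and side of the threshold, 15 lost the call, 26 gained it and 2 reversed. Both reversals were Cdh11 for the Ctnnb1 guides at low CHIR (-0.10 by edgeR and -0.12 by DESeq2). No member call changed with the pseudocount, without the filter or with TMM. The cause of the changes was not tested; edgeR and DESeq2 had 3 libraries fewer, which left 1 library each for Cre in high CHIR and for the GFP guide in low CHIR of the Ctnnb1 table.

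Comparisons follow in the order of the report's counts, with members first and all genes after. With the replicate block, wild-type high against low CHIR had 5 members called. Replicate numbers there share only a number (correlations -0.016 to 0.177). In the Ctnnb1 table, with 2 pairs in each comparison, same-numbered deviations correlated by 0.142 to 0.518. The stroma sum there was higher in replicate 1 of each guide group and in replicate 2 of each Cre and no-Cre group. Replicate numbers of the Ctnnb1 table may thus mark pairs, which the labels do not say. With the block, Cre at low CHIR called 1 member and 513 genes, the guides at low CHIR 21 genes, Cre at high CHIR 2639 genes and the guides at high CHIR 4 members and 2133 genes. The CHIR response with the block called 2661 genes without Cre, 1 member and 128 genes with Cre, 2562 genes with the GFP guide of the Ctnnb1 table, and 1 member and 447 genes with the Ctnnb1 guides. The block gave 526 genes for the Cre and 235 for the guide interaction. In the Tcf/Lef table the block gave 16 genes at low and 1181 at high CHIR for QKO. The block also gave 4 members and 952 genes for the CHIR response of QKO, and 1 member and 136 genes for its interaction. It moved no other count of members by over 1.5 times.

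With the compared groups alone, no against low CHIR called 1567 genes, Cre 4 at low and 624 at high CHIR (3 members), and the Ctnnb1 guides 0 at low and 1728 at high CHIR. The CHIR response then called 552 genes without Cre, 0 with Cre, 214 (1 member) with the Ctnnb1 guides and 2 members in QKO. The Cre interaction had 0 members and 49 genes, and QKO at low CHIR 0 genes. The guides at low CHIR called 0 genes with a pseudocount of 0.5, with TMM and by edgeR, and QKO at low CHIR 4 without the filter.

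EdgeR called 2 members and 914 genes for Cre at high CHIR, 31 genes for the CHIR response with Cre, 2 members and 628 genes for that with the GFP guide of the Ctnnb1 table, 0 members and 106 genes for the Cre interaction, 1 member and 156 genes for QKO at high CHIR and 11 genes for the QKO interaction. DESeq2 called 1788 genes for no against low CHIR, 1 member and 258 genes for Cre at low CHIR, 4 members and 1383 genes for the guides at high CHIR, 1 member and 77 genes for the CHIR response with Cre, and 1 member and 309 genes for that with the Ctnnb1 guides. It called 300 genes for the Cre and 166 for the guide interaction, 25 for QKO at low CHIR, 3 members and 884 genes for the CHIR response in QKO, and 1 member and 120 genes for the QKO interaction.

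With each library left out in turn, wild-type high against low CHIR called 3 to 4 members and 995 to 2207 genes, and no against low 0 to 1 and 113 to 1032. Cre called 0 to 1 members and 18 to 303 genes at low and 2 to 3 and 838 to 972 at high CHIR. The guides called 0 to 1 genes at low and 1 to 2 members and 204 to 421 genes at high CHIR. The CHIR response called 776 to 1724 genes without Cre, 13 to 28 with Cre, 1 to 2 members and 504 to 666 genes with the GFP guide of the Ctnnb1 table, 31 to 67 genes with the Ctnnb1 guides, 1545 to 3112 with the GFP guide of the Tcf/Lef table, and 0 to 2 members and 129 to 308 genes in QKO. QKO called 0 to 4 genes at low and 0 to 1 members and 157 to 480 genes at high CHIR. The interactions called 0 to 2 members and 95 to 165 genes for Cre, 29 to 61 genes for the guides and 4 to 50 for QKO.

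Differences that changed sign when a library was left out were all uncalled. They were Cdh2 for no against low CHIR (-0.10 to 0.10), Cdh3 and Cdh6 for Cre at low CHIR (-0.25 to 0.33 and -1.08 to 0.40), Cdh11 for the guides at low CHIR (-0.11 to 0.28), Cdh3 and Cdh4 for the CHIR response with Cre (-0.36 to 0.68 and -0.10 to 0.65), Cdh2 in QKO at low CHIR, high CHIR and the interaction (-0.23 to 0.34, -0.035 to 0.23 and -0.24 to 0.34), and Cdh11 in QKO at high CHIR (-0.30 to 0.14). The SEs of the member differences, 0.177 to 0.441 in the Ctnnb1 table with 2 libraries a group, limit what could be detected.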

Other observations

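Some markers of other cell types were high in wild-type cells in high CHIR. Gata3, a transcription factor of the ureteric lineage and other tissues, had a mean normalized count of 3002 (623 to 4283 over 3 libraries) in high and 53.5 in low CHIR. Flt1 and Tek, receptors best known from endothelium, had means of 489 (39.1 to 1336) and 456 (13.1 to 769) in high and 9.12 and 0.798 in low CHIR. Other endothelial markers were near 0 there: Pecam1 averaged 21.4, Kdr 11.2 and Cdh5 (VE-cadherin) 2.24, and Tie1 was at 0 in all 3 libraries. In GFP-guide cells of the Tcf/Lef table in high CHIR, Tek averaged 139 and Gata3 358, with Pecam1 at 19.8. These genes were named after their values were seen, and their part in the cadherin differences was not tested.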
